A study of Mus musculus with 15 samples.

Results

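The proteasome genes described here were chosen by symbol: every gene of the array annotation whose single symbol is Psma, Psmb, Psmc, Psmd, Psme, Psmf or Psmg followed by a number. The rule took 47 of 31366 genes measured. Psme2, whose rows are shared with a near-identical copy in the annotation, was not analysed here. The proteasome is the protease that destroys proteins tagged with ubiquitin. Its barrel-shaped core (the 20S particle) is built of alpha and beta rings, and a regulatory cap (the 19S particle) binds, unfolds and feeds in the substrate. Antibody-secreting cells degrade misfolded proteins from a heavily loaded secretory pathway, and in immune cells 3 immunoproteasome subunits can take the place of the constitutive catalytic subunits of the core.

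The series compared splenic B cells of C57BL/6 mice, wild type (WT) or ELL2 -/- cko, a conditional knockout of the transcription elongation factor ELL2 whose Cre driver the labels do not name. Cells were isolated on MACS columns and processed at once without LPS, or cultured for 72 hours with LPS (lipopolysaccharide, which drives B cells towards antibody secretion). Each sample gave 1 array. Each genotype had 4 unstimulated samples, and LPS cultures numbered 4 for WT and 3 for ELL2 cko. As no cells were cultured without LPS, the agent and the 72 hours of culture cannot be told apart. All values are log2 on the deposited scale, and a gene value is the median of the gene's exon regions in an array. A gene is called changed at an adjusted p under 0.05 in a limma model fitted to all 31366 genes.

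By role the 47 genes are 8 alpha subunits, 4 structural beta subunits (Psmb1 to Psmb4), 3 constitutive catalytic beta subunits (Psmb5, Psmb6 and Psmb7), 4 immunoproteasome or thymus subunits (Psmb8, Psmb9, Psmb10 and Psmb11), 6 ATPases (Psmc1 to Psmc6) and 11 non-ATPase subunits of the regulatory particle. The others are 3 chaperones of the regulatory particle (Psmd5, Psmd9 and Psmd10), 4 chaperones of the core (Psmg1 to Psmg4), 3 activators (Psme1, Psme3 and Psme4) and the inhibitor Psmf1. Psma8, a testis form of an alpha subunit, lay between 3.89 and 4.47 in the 15 arrays and Psmb11, the thymus catalytic subunit, between 3.15 and 3.71, both under the median gene (5.06 to 5.14 by group). Psmg3 lay between 4.58 and 5.31, about at the median gene.

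Background control rows had a median between 3.02 and 3.43 by array. Ell2 itself lay between 10.87 and 11.10 in WT cells without LPS and between 15.73 and 16.86 with LPS, and in ELL2 cko cells between 9.78 and 11.17 without LPS and between 14.14 and 14.16 with LPS, so its signal was lower with LPS in the knockout but not gone. Markers of other cells were present in 4 ELL2 cko arrays. The mean of 14 T cell markers was 11.04 and 10.55 in ELL2 cko replicates 1 and 2 without LPS and 6.66 and 6.91 in replicates 2 and 3 with LPS, against 4.85 to 5.11 in the other arrays. In the same 4 arrays the mean of 13 neutrophil markers was 11.01, 10.67, 4.90 and 4.80, against 4.25 to 4.61 elsewhere. The 9 NK cell markers had means of 8.58, 8.54, 4.92 and 4.98, against 4.35 to 4.72 elsewhere. The mean of 12 monocyte and macrophage markers was 8.72, 8.77, 5.99 and 6.04 in these arrays and 5.06 to 5.40 in WT cells. ELL2 cko replicates 3 and 4 without LPS, at 5.50 and 6.00 for these markers, also lay above every WT array. For 8 dendritic cell markers they lay at 6.05 and 6.41 (WT 4.99 to 5.92). Both replicates were kept when the 4 arrays, which were set apart by their T cell markers, were left out. Cd3e, a chain of the T cell receptor complex, lay between 3.93 and 4.72 in the 11 other arrays. B cell markers (7 measured of 8) were all above the median gene in every group. Their mean was 15.47 to 15.71 in WT cells without LPS and 11.40, 13.77, 11.76 and 13.69 in WT replicates 1 to 4 with LPS. In ELL2 cko cells it was 13.93 to 15.57 without LPS and 14.08 to 14.18 with LPS.

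The catalytic subunits carry the comparison of the constitutive core with the immunoproteasome, so the bases just before the start used for each window are shown for 4 of them. They are the last 100 bases before that start on the gene's strand, from RefSeq on GRCm38.p6, and capitals mark the motifs found. The Psmb6 gene is annotated from 70525324, so the end of its window, with the marked bases, lies inside the annotated gene. Psmb5 (chr14:54617996-54618095, minus strand) and Psmb6 (chr11:70525257-70525356, plus strand) hold TGACNNNGC, the core of the antioxidant response element, to which the proteasome regulator NRF1 is known to bind. Psmb8 (chr17:34198095-34198194, plus strand) holds TTCNNNGAA, the letters of a STAT site. Psmb9 (chr17:34187331-34187430, minus strand) holds CCAAT, the NF-Y box, on the opposite strand. The matched window of Psmb10, not shown here, held none of the motifs searched.
Psmb5: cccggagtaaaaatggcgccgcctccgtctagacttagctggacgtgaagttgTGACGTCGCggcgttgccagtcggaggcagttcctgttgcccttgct
Psmb6: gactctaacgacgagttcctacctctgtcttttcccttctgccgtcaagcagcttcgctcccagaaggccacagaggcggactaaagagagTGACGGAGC
Psmb8: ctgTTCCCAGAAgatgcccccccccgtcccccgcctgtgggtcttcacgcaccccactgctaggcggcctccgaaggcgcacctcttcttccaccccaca
Psmb9: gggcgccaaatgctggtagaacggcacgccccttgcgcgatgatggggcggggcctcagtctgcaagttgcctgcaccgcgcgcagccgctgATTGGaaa

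Promoter windows of 300 bases (250 before and 50 after the start) were matched for 39 of the 47 genes, in 41 windows because Psma6 and Psmc2 have more than 1. The start used can lie inside the annotated gene, as for Psmb6 and Psma3. No window was matched for Psma8, Psmb1, Psmb2, Psmb7, Psmc3, Psmd3, Psmd7 and Psmg2. Both strands were searched. TGACNNNGC was in 14.6% of the windows of the proteasome genes (6 of 41) and in 12.4% of all 32851 windows, CCAAT in 34.1% and 37.4%, and TTCNNNGAA in 7.32% and 8.30%. The core of the interferon-stimulated response element was in 12.2% of these windows (5 of 41) and in 3.44% of all windows. It was found in the windows of Psmb3, Psmd4, Psmd9, Psme1 and Psmg4, and not in those of Psmb8, Psmb9 and Psmb10. ACCGGAAGT, an ETS site, was in 9.76% (4 of 41) and 1.10%. A match gives the letters only and no binding was measured.

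LPS culture raised most of the proteasome in WT cells. In WT cells 28 of the 47 genes rose and 2 fell, where 13.9% of all genes rose and 10.6% fell, and the median change was 0.97 for these genes and 0.03 for all genes. The rise ran through both particles: 11 of the 14 constitutive core genes other than Psma8 and 14 of the 17 genes of the regulatory particle rose. Of the 3 immunoproteasome subunits 1 rose (Psmb9), 1 fell (Psmb10) and 1 passed no test (Psmb8). None of the 3 chaperones of the regulatory particle passed the test. Leaving out any 1 array kept 26 of the 30 calls. Psmd6 was lost in 7 of these fits (each WT array but replicate 2 with LPS, adjusted p up to 0.11), Psmc5 in 2 (WT replicate 1 without LPS and replicate 4 with LPS, adjusted p up to 0.0605), and Psmb10 and Psme1 as described with each. In the same WT arrays 6 of the 7 B cell markers fell, with a median change of -3.15 over the 7. The part of that shift in the proteasome values was not tested, and in bulk RNA fewer cells of a type and less RNA per cell cannot be told apart.

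**Figure D1:**
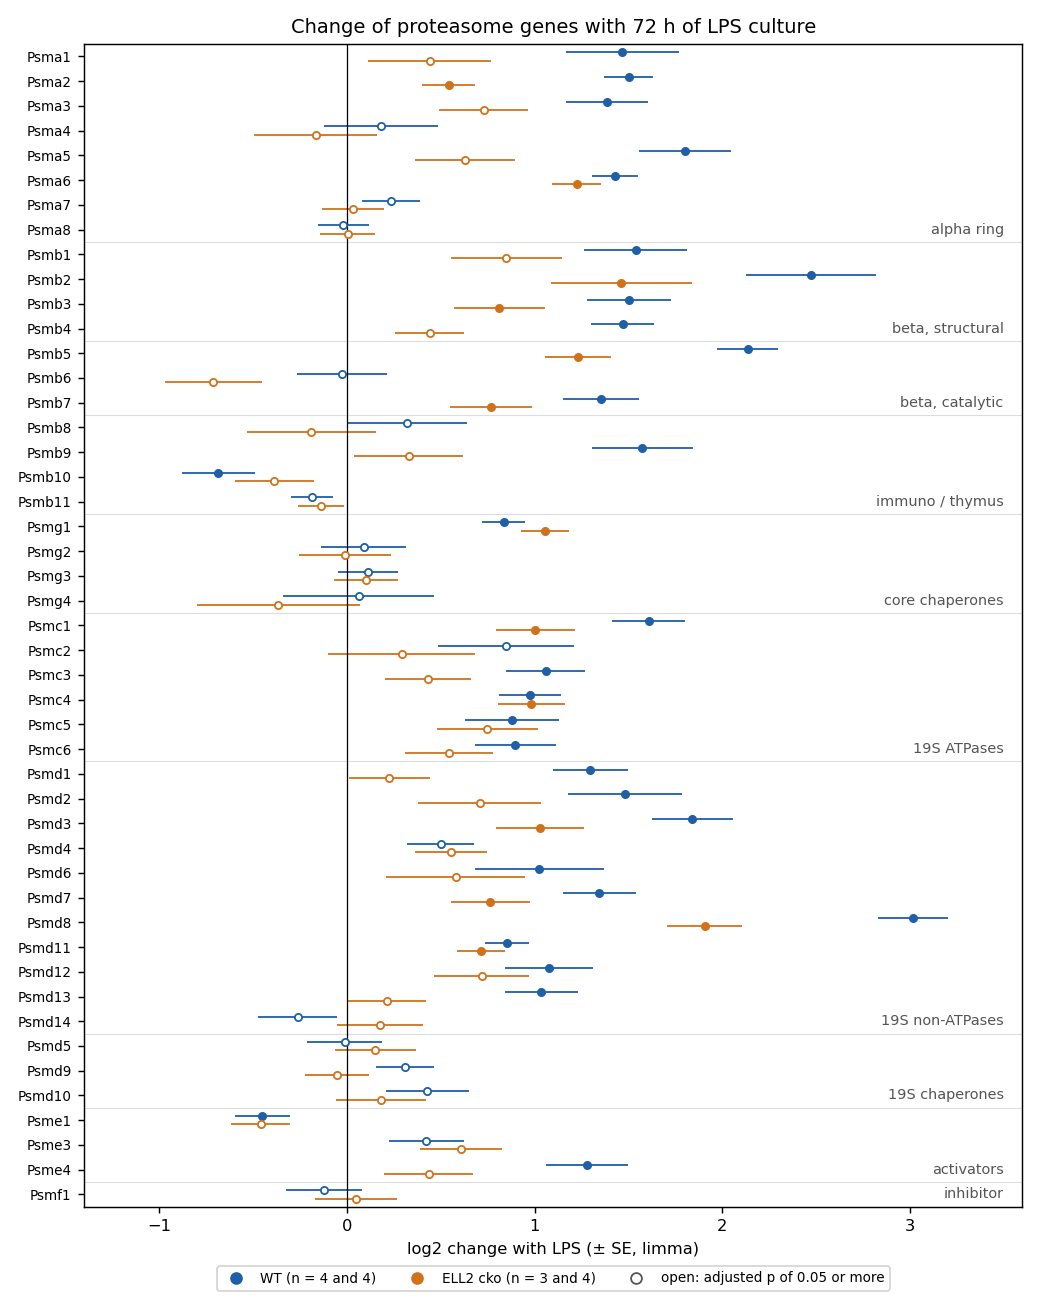
The log2 change with LPS (horizontal axis, with its SE from limma) is shown for each of the 47 genes, ordered by role, in WT (blue) and ELL2 cko cells (orange). Filled points passed an adjusted p under 0.05: 28 genes rose and 2 fell in WT cells, and 13 rose in ELL2 cko cells.

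Among alpha subunits, which form the gated outer rings of the core, 5 of 8 rose in WT cells. Psma5 read 11.62, 12.13, 12.14 and 12.29 in the 4 unstimulated WT arrays and 14.06, 13.58, 13.92 and 13.82 with LPS. Every array with LPS was above every array without it. The change of Psma5 was 1.80 (SE 0.25, adjusted p = 7.54e-05), the largest of its ring, while Psma4 (0.18), Psma7 (0.24) and Psma8 (-0.02) were not called. All 4 structural beta subunits rose. Psmb2 read 10.52, 11.65, 11.73 and 11.95 without LPS and 14.56, 13.39, 14.25 and 13.55 with LPS, without overlap and with WT replicates 1 and 3 the highest. Its change was 2.47 (SE 0.35, adjusted p = 1e-04). Psmb4, with the smallest change of the structural beta subunits, read 9.81, 10.26, 10.50 and 10.69 without LPS and 12.00, 11.57, 11.94 and 11.63 with LPS, a change of 1.47 (SE 0.17, adjusted p = 1.67e-05).

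Of the constitutive catalytic subunits, which cut the substrate, 2 of 3 rose. Psmb5, the chymotrypsin-like subunit, read 12.25, 12.42, 12.66 and 12.75 without LPS and 14.81, 14.36, 15.02 and 14.44 with LPS. The groups did not overlap, and the change was 2.14 (SE 0.16, adjusted p = 3.42e-07). Psmb7, the trypsin-like subunit, read 10.69, 11.15, 11.58 and 11.56 without LPS and 12.51, 12.40, 12.64 and 12.87 with LPS. That is a change of 1.35 (SE 0.20, adjusted p = 0.000163) without overlap. Psmb6, the caspase-like subunit, read 9.32, 9.95, 9.70 and 9.85 without LPS and 10.09, 9.66, 9.70 and 9.27 with LPS. These groups overlapped, with a change of -0.03 (SE 0.24, adjusted p = 0.96).

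The immunoproteasome subunits split. Psmb9, which takes the place of Psmb6, read 10.17, 11.19, 11.15 and 11.27 in WT cells without LPS and 12.70, 12.41, 12.54 and 12.41 with LPS. The 4 arrays with LPS were all higher, with a change of 1.57 (SE 0.27, adjusted p = 0.000517). Psmb10, which takes the place of Psmb7, read 8.70, 8.74, 9.15 and 9.18 without LPS and 8.21, 8.28, 7.95 and 8.60 with LPS. Here the arrays with LPS were all lower, and the change was -0.69 (SE 0.19, adjusted p = 0.0177). The call of Psmb10 was lost without WT replicate 3 or 4 without LPS (adjusted p = 0.0569 for each) or WT replicate 3 with LPS (0.0616). Psmb8, which takes the place of Psmb5, read 9.72, 10.28, 10.66 and 10.16 without LPS and 9.90, 10.47, 10.60 and 11.12 with LPS. The groups overlapped (change 0.32, SE 0.32, adjusted p = 0.542). Psmb11 was dim in both WT groups (3.31 to 3.71 without LPS and 3.16 to 3.43 with LPS) and was not called.

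**Figure D2:**
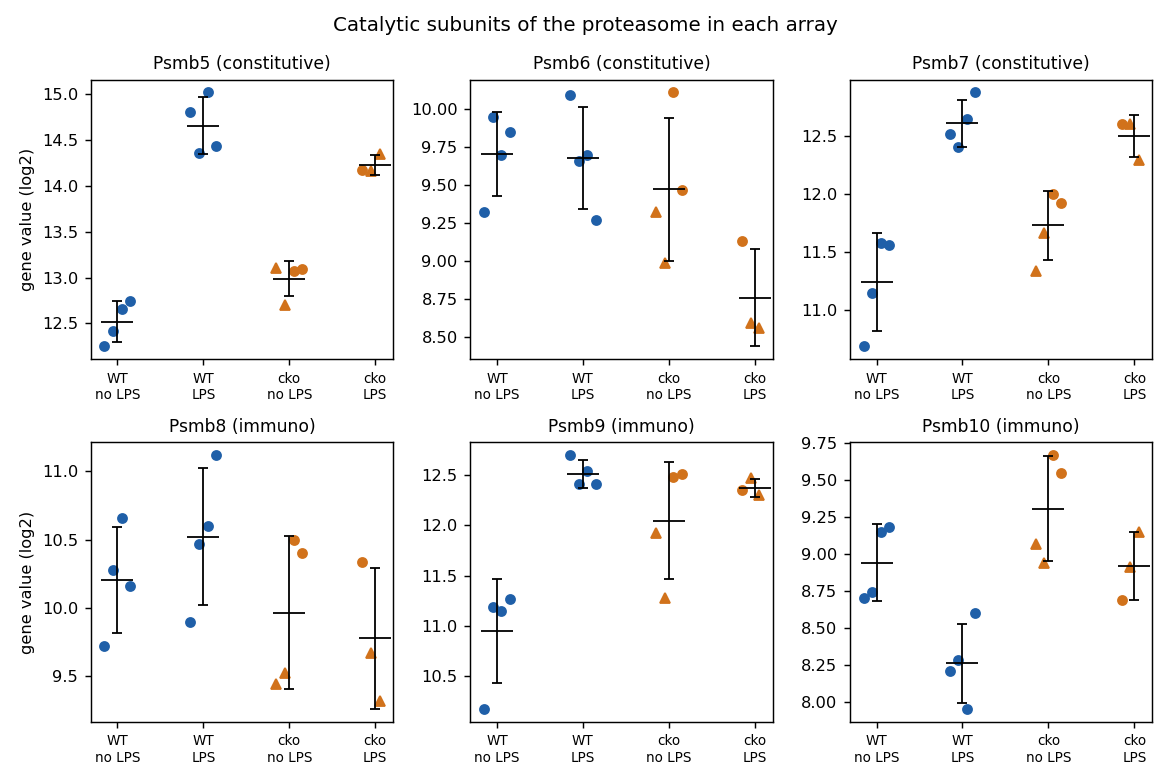
Gene values (log2, vertical axes with separate ranges that do not start at 0) of the constitutive (top) and immunoproteasome (bottom) catalytic subunits are plotted for every array. Bars are group means with SD (n = 4, 4, 4 and 3), and triangles mark the 4 ELL2 cko arrays with markers of other cells. Psmb5 and Psmb7 are higher with LPS in every WT array, Psmb9 rises and Psmb10 falls in WT cells.

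Of the ATPases, which unfold the substrate, 5 of 6 rose in WT cells. Psmc1 read 10.76, 10.28, 10.33 and 10.67 without LPS and 12.49, 11.55, 12.41 and 12.02 with LPS, a change of 1.61 (SE 0.19, adjusted p = 2.5e-05). Psmc2 read 10.04, 10.21, 9.85 and 10.05 without LPS and 12.03, 10.11, 10.45 and 10.95 with LPS. For Psmc2 the groups overlapped, WT replicate 1 was far above the other arrays with LPS, and the change of 0.85 (SE 0.36) was not called (adjusted p = 0.112). Of the non-ATPase subunits 9 of 11 rose. Psmd8, a lid subunit, read 10.66, 10.27, 10.56 and 10.76 without LPS and 14.01, 13.13, 13.57 and 13.59 with LPS. Its change of 3.02 (SE 0.19, adjusted p = 4.27e-08) was the largest of the 47 genes in WT cells by the median of all exon regions, while by the brighter exon regions, described with the exon regions, it was 2.67, under the 2.92 of Psmd14. Psmd14, the enzyme that removes ubiquitin chains at the cap, read 11.10, 10.96, 11.36 and 11.37 without LPS and 10.66, 11.07, 10.90 and 11.10 with LPS. Its groups overlapped (change -0.26, SE 0.21, adjusted p = 0.433), but its exon regions did not move together, as described with the exon regions.

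Of the 7 assembly factors 1 passed the test in WT cells. Psmd10 (gankyrin), a chaperone of the regulatory particle, read 9.70, 9.97, 9.74 and 10.66 in WT cells without LPS and 10.68, 10.39, 10.32 and 10.38 with LPS. The groups overlapped, and the change of 0.43 (SE 0.22) was not called (adjusted p = 0.193). Psmd5, another such chaperone, read 9.71, 9.71, 9.65 and 9.98 without LPS and 9.55, 9.61, 10.02 and 9.81 with LPS, a change of -0.01 (SE 0.20, adjusted p = 0.977). Of the 4 core chaperones only Psmg1, which pairs with Psmg2 to guide alpha ring assembly, passed the test. Psmg1 read 8.49, 8.18, 8.43 and 8.42 without LPS and 9.02, 9.22, 9.14 and 9.49 with LPS. The change was 0.84 (SE 0.12, adjusted p = 9.22e-05) without overlap, and 1.65 by the brighter exon regions (adjusted p = 1.16e-05). Psmg4 read 9.60, 10.80, 10.93 and 11.09 without LPS and 9.46, 11.04, 10.90 and 11.26 with LPS, with replicate 1 the lowest in each (change 0.06, SE 0.40, adjusted p = 0.941).

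Of the activators, which open the core gate without a full cap, Psme4 (PA200) rose. Psme4 read 10.30, 9.80, 9.87 and 9.80 in WT cells without LPS and 11.39, 10.71, 11.90 and 10.89 with LPS. All 4 arrays with LPS were higher, replicates 1 and 3 most, and these are the 2 WT arrays with LPS whose B cell marker means were lowest (11.40 and 11.76), whose part in the result was not tested. The change was 1.28 (SE 0.22, adjusted p = 0.000545). Psme1 (PA28 alpha), which with Psme2 forms an interferon-inducible activator, read 7.44, 7.85, 7.96 and 7.61 without LPS and 7.08, 7.40, 7.07 and 7.52 with LPS. The groups overlapped slightly, with a change of -0.45 (SE 0.15, adjusted p = 0.0355). This call was lost without any 1 of WT replicates 2 and 3 without LPS (adjusted p = 0.0981 and 0.114) and replicates 1 and 3 with LPS (0.104 and 0.106). Psme3 (PA28 gamma), the nuclear activator, read 12.49, 12.66, 12.61 and 12.70 without LPS and 12.88, 13.09, 12.95 and 13.21 with LPS. Its groups did not overlap but the change of 0.42 (SE 0.20) was not called (adjusted p = 0.155). Psmf1 (PI31), named an inhibitor from its action on the core in vitro, read 7.68, 7.70, 7.76 and 8.03 without LPS and 7.41, 8.01, 7.61 and 7.66 with LPS, with overlap and no call (change -0.12, SE 0.20, adjusted p = 0.742). In ELL2 cko cells Psme1 read 8.11, 8.31, 8.22 and 8.25 without LPS and 7.53, 7.80 and 7.96 with LPS, lower without overlap but not called (-0.46, adjusted p = 0.0839). Psme3 read 12.56, 11.99, 13.21 and 12.90 in unstimulated ELL2 cko cells and 13.11, 13.47 and 13.23 after LPS culture, with overlap and no call (0.61, adjusted p = 0.0991). Psmf1 overlapped as well, with a highest value of 8.06 before and 7.78 after culture and a lowest after culture of 7.40 (0.05, adjusted p = 0.935).

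Because the median hides regions of a gene that move apart, the fit was repeated with each gene's brighter exon regions only. These are the regions whose mean over the 15 arrays reaches the median of the gene's regions. This alternative was added after the data were seen. That mean includes the arrays with LPS, so a region that rose with LPS was more likely to count as brighter. The choice of these regions is thus not independent of the change tested. With these regions 34 of the 47 genes rose in WT cells and 1 fell, where 15.7% of all genes rose and 11.9% fell, and the median change was 1.19. Both choices called 28 of the genes. All 11 non-ATPase subunits, all 7 constitutive beta subunits and 7 of the 8 alpha subunits rose by the brighter regions. Psmd14 then read 12.63, 12.33, 12.34 and 12.44 without LPS and 15.14, 15.41, 15.48 and 15.39 with LPS, a change of 2.92 (adjusted p = 5.49e-09). Psmb6 read 12.65, 13.09, 13.25 and 13.43 without LPS and 14.68, 14.03, 14.43 and 14.07 with LPS. This is a change of 1.20 (adjusted p = 0.00113), where the median of all regions gave -0.03. Psma7 rose by 2.04 (adjusted p = 6.44e-06) and Psma4 by 1.40 (adjusted p = 0.00243). Psmd9, Psmc2 and Psmd4 were called by the brighter regions alone, with changes of 0.89, 0.83 and 0.41. Psmc6 (0.29, adjusted p = 0.114) and Psme1 (0.04, adjusted p = 0.933) were no longer called. The immunoproteasome calls stood as before: Psmb9 rose by 1.60 (adjusted p = 0.000894), Psmb10 changed by -0.95 (adjusted p = 0.0119) and Psmb8 was not called (0.85, adjusted p = 0.12).

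**Figure D3:**
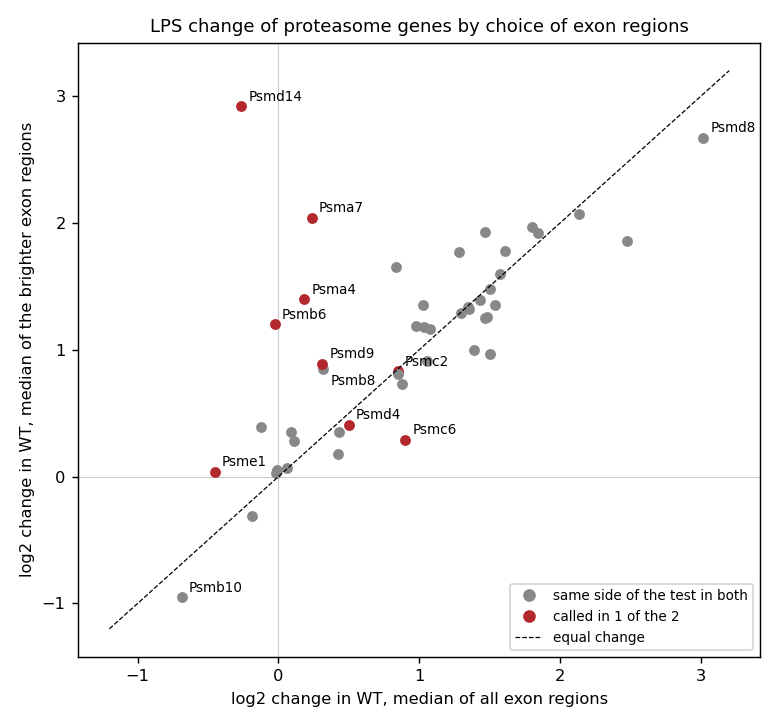
Each point is a proteasome gene with its log2 change with LPS in WT cells by the median of all exon regions (horizontal) and by the brighter exon regions (vertical). The dashed line marks equal change, and red points were called by 1 of the 2 choices. Psmd14 stands farthest from the line, at -0.26 and 2.92.

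Within genes, exon regions and junctions were each set against the median of their gene in the same array. In WT cells 264 of 1232 rows of 44 proteasome genes changed against their gene with LPS (105 higher and 159 lower), in 39 genes, where 15.6% of all rows tested were called. Psmd14 had 23 of its 39 rows called, all higher. Its region PSR0200007415.mm.1 read 12.66, 12.46, 12.43 and 12.67 in WT cells without LPS and 15.48, 15.47, 15.68 and 15.48 with LPS. Relative to the gene median this region rose by 3.24 (SE 0.22, adjusted p = 1.56e-06), and PSR0200007416.mm.1 rose by 3.43 and junction JUC0200003767.mm.1 by 3.59. Of its 23 exon regions 19 were higher with LPS in WT cells, the largest change being 3.72. In Psma7 13 of 24 rows, in Psmb6 11 of 16 rows and in Psma4 9 of 28 rows were called higher than their gene. A lower call need not be a fall of the row. Of the 159 lower rows 102 had a lower mean with LPS than without. Of all 159, 35 lay under the median gene in both groups. An example is PSR0700023967.mm.1 of Psmd8, with means of 3.41 and 3.38, which was called 3.04 lower against a gene that rose by 3.02 (adjusted p = 2.26e-06).

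In ELL2 cko cells the rise with LPS was called for fewer proteasome genes. There 13 of the 47 genes rose and 0 fell, where 6.36% of all genes rose and 3.99% fell, and the median change was 0.44, against 0.04 for all genes. The genes that rose were Psma2, Psma6, Psmb2, Psmb3, Psmb5, Psmb7, Psmc1, Psmc4, Psmd3, Psmd7, Psmd8, Psmd11 and Psmg1. When the 4 arrays carrying other-cell markers were left out (background 2.47% higher and 1.69% lower), Psma6, Psmd8 and Psmg1 passed the test, and all 13 had the same direction. That fit leaves 1 ELL2 cko array with LPS, which is assumed to vary like the other groups. Without ELL2 cko replicate 2 or replicate 3 with LPS the count was 8, where 1351 and 1229 of all genes rose. With all arrays, 25 of the 47 genes and 7276 of all 31366 had an unadjusted p under 0.05. Of the 13 calls 7 held whichever array was left out. Those lost in at least 1 of these fits were Psma2, Psmb2, Psmb3, Psmb7, Psmd3 and Psmd7.

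Psmd8 read 11.29, 10.84, 11.24 and 10.84 in ELL2 cko cells without LPS and 12.98, 12.72 and 13.18 with LPS. It rose without overlap by 1.91 (SE 0.20, adjusted p = 5.09e-05). Psmb5 read 13.10, 12.70, 13.07 and 13.09 without LPS and 14.17, 14.16 and 14.35 with LPS, a change of 1.23 (SE 0.18, adjusted p = 0.000481). Psmg1 read 8.60, 8.77, 8.73 and 8.61 without LPS and 9.84, 9.73 and 9.63 with LPS. For Psmg1 the change was 1.06 (SE 0.13, adjusted p = 0.000129), and all 3 arrays with LPS were higher. No immunoproteasome subunit was called in ELL2 cko cells. Psmb9 read 11.92, 11.28, 12.48 and 12.51 without LPS and 12.35, 12.47 and 12.30 with LPS, so the groups overlapped (change 0.33, adjusted p = 0.565). Psmb8 read 9.44, 9.52, 10.50 and 10.40 without LPS and 10.34, 9.67 and 9.32 with LPS, and in both groups the arrays with T cell markers were the lower ones (change -0.19, adjusted p = 0.808). Psmb10 read 9.07, 8.94, 9.67 and 9.55 without LPS and 8.69, 8.91 and 9.15 with LPS, with overlap (change -0.39, adjusted p = 0.298). Psmb6 read 9.32, 8.99, 10.11 and 9.47 without LPS and 9.13, 8.59 and 8.56 with LPS, and its change of -0.71 was not called (adjusted p = 0.103). By the brighter regions the Psmb6 change had the other sign, at 0.27 (adjusted p = 0.563). Psmb7 read 11.34, 11.66, 12.00 and 11.92 without LPS and 12.60, 12.60 and 12.29 with LPS. The change of Psmb7 was 0.77 (adjusted p = 0.0374), without overlap. Among other fits, the call was lost without ELL2 cko replicate 1, 2 or 3 with LPS (adjusted p = 0.0972, 0.134 and 0.0586).

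By the brighter regions 11 genes rose and 0 fell in ELL2 cko cells with LPS (background 7.41% higher and 4.40% lower), and 7 of the 13 genes called by the median were among them. The 4 genes gained were Psmd14, with a change of 2.22 (adjusted p = 1.95e-06) where the median of all regions gave 0.18, Psma4 (1.06, adjusted p = 0.0463), Psma3 and Psmd1. The 6 genes lost were Psma2, Psmb2, Psmb3, Psmc1, Psmc4 and Psmd3, with Psmb2 at 0.78 in place of 1.46 (adjusted p = 0.0617). Within genes 56 rows changed against their gene (26 higher and 30 lower) in 21 genes, where 2.22% of all rows were called, and 17 of the 26 higher rows belong to Psmd14. Its region PSR0200007409.mm.1, with the smallest adjusted p of these rows, had means of 12.38 without LPS and 14.80 with LPS (index change 2.25, adjusted p = 0.000321).

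**Figure D4:**
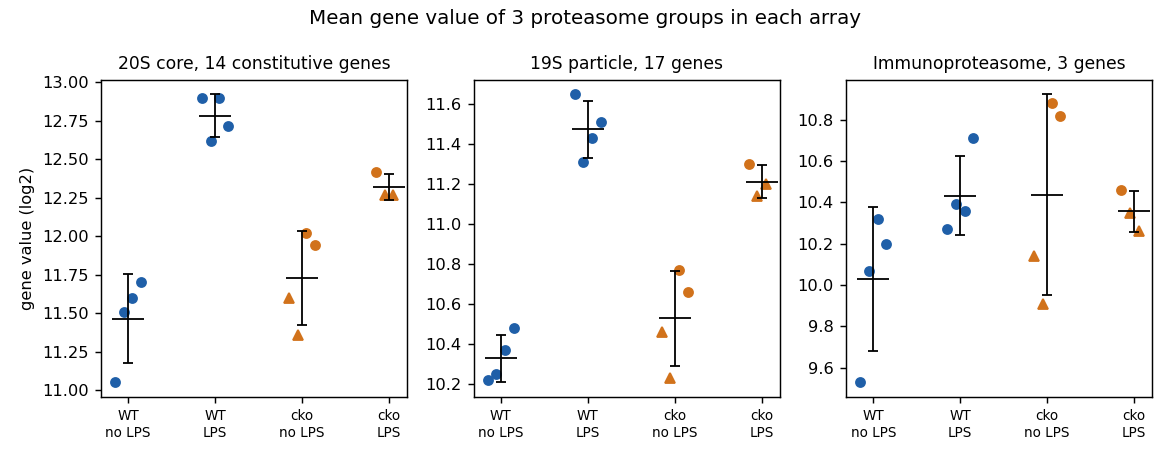
The mean gene value (log2, vertical axes with separate ranges that do not start at 0) of 14 constitutive core genes, 17 regulatory particle genes and 3 immunoproteasome genes is plotted for every array. Bars are group means with SD (n = 4, 4, 4 and 3), and triangles mark ELL2 cko arrays with markers of other cells. The core mean is 11.05 to 11.70 without LPS and 12.62 to 12.90 with LPS in WT cells, and 11.36 to 12.02 and 12.27 to 12.42 in ELL2 cko cells.

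Without LPS 0 of the 47 genes were called between ELL2 cko and WT cells in limma, where 0.0128% of all genes were called, all higher and 0% lower. At an unadjusted p under 0.05 there were 10 of the 47 genes, against 2829 of all 31366 genes. The median difference was 0.19, with a range from -0.29 to 1.11, against 0.00 for all genes. With the 4 arrays carrying other-cell markers left out, 2 of which are in this comparison, the median was 0.39 and 0 genes were called. Leaving out 1 array in turn gave a median between 0.13 (without WT replicate 1 or ELL2 cko replicate 3, each without LPS) and 0.30 (without ELL2 cko replicate 2 without LPS). By the median of all regions the largest difference was that of Psmb9, where ELL2 cko arrays (11.28 to 12.51) lay just above all 4 WT arrays (10.17 to 11.27). At 1.11 (SE 0.27) it was not called (adjusted p = 0.328), nor at 1.55 with the 4 arrays left out (adjusted p = 0.167). WT replicate 1, at 10.17, was far below the other WT arrays. By the brighter regions the Psmb9 difference was 0.67 (limma adjusted p = 0.5). Those groups overlapped, with ELL2 cko replicate 2 (12.47) under every WT array (12.56 to 13.16).

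With LPS 1 of the 47 genes was higher and 2 were lower in ELL2 cko than in WT cells, where 1.36% of all genes were higher and 3.30% lower. The median difference was -0.19, against 0.02 for all genes. At an unadjusted p under 0.05 there were 18 of the 47 genes, against 5334 of all 31366 genes. All 14 constitutive core genes other than Psma8 had a lower mean in ELL2 cko cells, a sign found in 47.3% of all genes, and 0 of them were called. With the 4 arrays carrying other-cell markers left out this held for 11 of the 14 (50.3% of all genes), with Psma6 at 0.04, Psmb1 at 0.02 and Psmb7 at 0.00. Psme4 read 11.39, 10.71, 11.90 and 10.89 in WT cells and 10.03, 10.17 and 10.18 in ELL2 cko cells. The 3 ELL2 cko arrays were below all WT arrays by a difference of -1.10 (SE 0.24, adjusted p = 0.0166). By the brighter regions the Psme4 difference was also -1.10 (adjusted p = 0.0277), the 1 call of that fit with LPS (background 3.57% lower and 1.85% higher). The Psme4 call was lost without WT replicate 1 (adjusted p = 0.0519), ELL2 cko replicate 2 (0.0688) or ELL2 cko replicate 3 (0.0639), while the difference stayed between -1.27 and -0.87. Psmd1, the scaffold subunit Rpn2 of the cap, read 11.54, 11.29, 11.47 and 11.71 in the LPS cultures of WT cells and 11.14, 10.40 and 10.45 in those of ELL2 cko cells. The 2 lowest are the arrays with T cell markers. Its difference of -0.84 (SE 0.22, adjusted p = 0.0406) was lost with 9 of the 15 arrays left out in turn: each WT array without LPS, WT replicates 1, 3 and 4 with LPS and ELL2 cko replicates 2 and 3 with LPS (adjusted p up to 0.202). By the brighter regions it was -0.21 (adjusted p = 0.612). Psmg1 was higher in ELL2 cko cells (9.84, 9.73 and 9.63) than in WT cells (9.02, 9.22, 9.14 and 9.49). That difference was 0.52 (SE 0.13, adjusted p = 0.0298), and was lost without WT replicate 1 or 3 or any ELL2 cko array with LPS (adjusted p from 0.0702 to 0.109). When the 4 arrays carrying other-cell markers were left out, none of the 3 genes was called, Psme4 at -1.19 (adjusted p = 0.287), in a fit with 1 ELL2 cko array with LPS that called 0.112% of all genes lower and 0% higher.

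**Figure D5:**
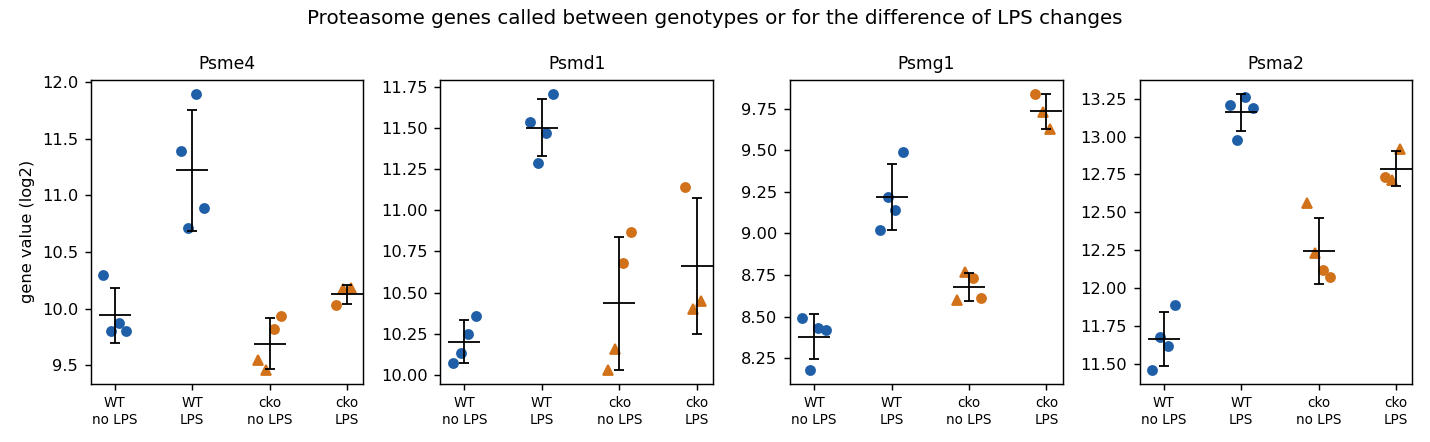
Gene values (log2, vertical axes with separate ranges that do not start at 0) of the 4 genes called between genotypes with LPS or for the difference of the LPS changes are plotted for every array. Bars are group means with SD (n = 4, 4, 4 and 3), and triangles mark ELL2 cko arrays with markers of other cells. With LPS, Psme4 is between 10.03 and 10.18 in ELL2 cko cells and between 10.71 and 11.90 in WT cells.

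The signed change with LPS, ELL2 cko minus WT, was below 0 for 37 of the 47 genes (78.7%), a sign found in 49.7% of all genes. With the brighter regions it was below 0 for 41 of 47 genes and for 43 of 47 when the 4 arrays carrying other-cell markers were left out. The difference of the LPS changes had an unadjusted p under 0.05 in limma for 11 of the 47 genes, against 4017 of all 31366 genes. It passed the adjusted test for 1 gene, where 1.18% of all genes were called lower and 0.185% higher. That gene was Psma2, an alpha subunit. It read 11.46, 11.68, 11.62 and 11.89 in WT cells without LPS and 13.21, 12.98, 13.26 and 13.19 with LPS. In ELL2 cko cells Psma2 read 12.56, 12.23, 12.12 and 12.07 without LPS and 12.73, 12.71 and 12.92 with LPS. Its rise was 1.50 (SE 0.13, adjusted p = 1.1e-06) in WT and 0.54 (SE 0.14, adjusted p = 0.0239) in ELL2 cko cells, a difference of -0.96 (SE 0.19, adjusted p = 0.0269). ELL2 cko arrays started higher and ended lower than WT arrays, without overlap in either state, and the highest start was in replicates 1 and 2, the arrays with T cell markers. The difference was not called by the brighter regions (-0.48, adjusted p = 0.466, background 1.42% lower and 0.287% higher), with the 4 arrays left out (-0.87, adjusted p = 0.307, background 0%), or without any 1 of WT replicates 1, 2 and 3 without LPS, WT replicates 1 and 3 with LPS and ELL2 cko replicates 2 and 3 with LPS (adjusted p up to 0.0977).

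To compare the immunoproteasome subunits with those they replace, the within-array difference of each pair was tested between groups with a two-sided exact permutation test, adjusted over 12 tests. Only the change of a difference is read, since probes of different genes have no common scale. Psmb8 minus Psmb5 was -2.53, -2.15, -2.00 and -2.59 in WT cells without LPS and -4.91, -3.89, -4.42 and -3.31 with LPS. It moved by -1.82, with 4 of 4 arrays with LPS lower (exact permutation p = 0.0286, the smallest that 4 against 4 arrays allow, adjusted p = 0.049). Psmb10 minus Psmb7 was -1.99, -2.42, -2.44 and -2.38 without LPS and -4.31, -4.12, -4.69 and -4.27 with LPS, a change of -2.04 (exact permutation test, adjusted p = 0.049). Psmb9 minus Psmb6 moved the other way, from 0.85, 1.23, 1.45 and 1.42 to 2.61, 2.75, 2.84 and 3.14. This change of 1.60 (exact permutation test, adjusted p = 0.049) shrank to 0.41 with the brighter regions (adjusted p = 0.309).

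In ELL2 cko cells the pairs moved in the same directions with LPS. Psmb10 minus Psmb7 was -2.28, -2.72, -2.34 and -2.37 without LPS and -3.91, -3.69 and -3.14 with LPS, a change of -1.15 (exact permutation test, adjusted p = 0.049). Psmb8 minus Psmb5 moved by -1.42 and Psmb9 minus Psmb6 by 1.04, and neither passed (exact permutation test, adjusted p = 0.0686 for each). Between genotypes with LPS, Psmb9 minus Psmb6 was higher in ELL2 cko cells by 0.78 and Psmb10 minus Psmb7 by 0.77 (exact permutation test, adjusted p = 0.049 for each). Without LPS, Psmb9 minus Psmb6 was higher in ELL2 cko cells by 1.34 (exact permutation test, adjusted p = 0.049), with all 4 arrays (2.29 to 3.04) above all WT arrays (0.85 to 1.45). The sizes of these Psmb9 minus Psmb6 differences depended on how the gene value was formed or on the arrays kept. Without LPS the 1.34 became 0.48 by the brighter regions and 0.31 by the mean of exon regions. It was 1.47 when the 4 arrays carrying other-cell markers were left out. With LPS the 0.78 became 0.61 by the brighter regions, 0.58 by the mean and 0.38 when these 4 arrays were left out. The 0.77 of Psmb10 minus Psmb7 with LPS became 0.89 by the brighter regions, 0.56 by the mean and 0.44 without these 4 arrays. Every pair called sits at the smallest p its design allows, and with the brighter regions none of the 12 tests passed. Without the 4 arrays none could pass, because too few ELL2 cko arrays remain for an adjusted p under 0.05 over 12 tests.

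Within genes, the 1 row called between genotypes with LPS was a junction of Psme1, where 0.454% of all rows were called. JUC1400003338.mm.1 read 11.92, 11.21, 11.57 and 11.80 in WT cells and 10.54, 10.37 and 10.39 in ELL2 cko cells. The ELL2 cko arrays were lower without overlap, and against its gene the junction was lower by an index of -1.68 (SE 0.27, adjusted p = 0.02). No row of these genes was called in limma without LPS or for the difference of the LPS changes, where 0% of all rows were called.

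Genes that work with the proteasome moved in several directions with LPS in WT cells. Each count stands against the 13.9% of all genes that rose and the 10.6% that fell. Of 12 measured partners of the proteasome 5 rose and 3 fell. Pomp, the maturation factor of the core, read 12.51, 12.36, 12.63 and 12.73 without LPS and 14.50, 13.98, 14.34 and 13.92 with LPS. It rose by 1.63 (adjusted p = 3.62e-06), and its change was smaller in ELL2 cko cells by a difference of -1.09 (adjusted p = 0.0372), a call lost by the brighter regions (-0.89, adjusted p = 0.156) and with the 4 arrays carrying other-cell markers left out (-0.94, adjusted p = 0.36). Txnl1, a thioredoxin bound to the cap, rose by 2.39 (adjusted p = 8.39e-06), and Ublcp1, a phosphatase that acts on nuclear proteasomes, was lower by a change of -2.07 (adjusted p = 0.00312). Of 11 shuttle factors and genes of the p97 unfoldase machinery 4 rose and 0 fell (7 and 0 by the brighter regions). Vcp, p97 itself, rose by 2.13 (adjusted p = 2.38e-05), its cofactor Nploc4 by 2.11 (adjusted p = 0.000112) and Rad23b, which carries ubiquitin-tagged proteins, by 1.89 (adjusted p = 0.000535). With LPS 3 of these 11 were lower in ELL2 cko than in WT cells, where 3.30% of all genes were lower and 1.36% higher, and 0 of 11 with the 4 arrays left out, where 0.112% were lower. Vcp read 14.22, 12.72, 14.05 and 13.65 in WT cells and 12.51, 12.51 and 12.50 in ELL2 cko cells, a difference of -1.15 (adjusted p = 0.0269), the same with the 4 arrays left out (adjusted p = 0.38) and -0.58 by the brighter regions (adjusted p = 0.205). Nploc4 differed by -1.74 (adjusted p = 0.00678), and by -1.25 with the 4 arrays left out (adjusted p = 0.215). Ngly1, which strips sugars from misfolded glycoproteins, read 9.10, 9.34, 10.22 and 9.22 in WT cells and 9.13, 8.21 and 8.08 in ELL2 cko cells (adjusted p = 0.0468). The ELL2 cko array without T cell markers lay inside the WT range of Ngly1 and the 2 with them lay below it, and with the 4 arrays left out the difference was -0.34 (adjusted p = 0.803).

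The genes that load proteasome products on MHC class I did not move as 1 group: 6 of 12 rose in WT cells with LPS and 0 fell. The largest rises were those of the endoplasmic reticulum chaperones Calr (2.70, adjusted p = 3.31e-05), Pdia3 (2.32, adjusted p = 0.000199) and Canx (1.88, adjusted p = 0.000134). Tap1, the peptide transporter that shares a promoter region with Psmb9, was not called (0.12, adjusted p = 0.856), and nor was Irf1, an interferon-induced activator of both (-0.46, adjusted p = 0.229). Of 6 regulators of proteasome genes 2 rose and 2 fell. Nfe2l1, which encodes NRF1, read 10.45, 10.06, 10.05 and 10.63 without LPS and 10.47, 11.02, 10.80 and 10.68 with LPS, with overlap and no call (0.44, adjusted p = 0.113). Nfe2l2, which encodes NRF2, was lower by a change of -1.07 (adjusted p = 0.000476), and the repressor Bach1 rose by 1.02 (adjusted p = 0.0111). Of 6 genes for ubiquitin and its activation only Uba6 was measured (0.16, adjusted p = 0.37).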

How the data were processed

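RNA of 15 samples was measured on exon and junction arrays. The authors deposited log2 values made by SST RMA in the Affymetrix Expression Console, per the labels (no version is stated there), and these were used as deposited, so folds are those of that scale. All 15 columns matched a sample. Of 725678 rows, 580167 have 1 gene symbol, 18694 have several and 126817 have none in the platform annotation, and the last 2 kinds were left out. Gene values are medians of exon regions (338822 rows), and 1465 symbols were updated through RefSeq synonyms. With R 4.3.3 and limma 3.58.1, group means were fitted to all 15 arrays with 5 contrasts, eBayes, two-sided tests and Benjamini-Hochberg adjustment over 31366 genes. Rows were tested as value minus gene median, for genes with at least 3 exon regions at or above the median gene. Methods were tested on simulated data.

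The genes, lists and tests were chosen with earlier results of these data known. Named were the catalytic subunits, activators and Psmf1, the largest and smallest change of each other role in WT cells, and genes called between genotypes, with values by array except Psma8, Psmb11 and Psmf1 in ELL2 cko cells, given as ranges. Some are given by array for WT cells only. Pathway lists gave up to 3 called genes each with Nfe2l1, Pomp, Tap1 and Irf1. The 4 arrays set aside had a T cell marker mean over 1 log2 unit above that of WT cells without LPS, a choice made after seeing the data. The labels describe isolation from each mouse but give no animal per array, so p-values measure the spread between these samples. The number of arrays limits the precision.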

Additional observations from a re-analysis of the deposited data

Results flagged for a closer look

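In groups of 4 arrays, a single array stood far from the other 3 for 7 values of proteasome genes, judged by Dixon's test over 141 groups. Chance flags about 1 in 20 groups. WT replicate 1 without LPS accounts for 4 of them. In it Psma4 was 9.58 (others 10.19 to 10.25), Psmb9 was 10.17 (others 11.15 to 11.27), Psmd13 was 8.46 (others 9.14 to 9.21) and Psme4 was 10.30 (others 9.80 to 9.87). In ELL2 cko replicate 2 without LPS, an array with markers of other cells, Psmb5 was 12.70 (others 13.07 to 13.10) and Psmd10 was 9.83 (others 10.42 to 10.48). Psmd3 was 10.47 in WT replicate 4 with LPS (others 10.74 to 10.76). Without WT replicate 1, the changes with LPS in WT cells of Psmb9 and Psme4 stayed called.

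The LPS changes of Psma2 in the 2 genotypes differed by -0.96 (ELL2 cko minus WT) in the limma test of the difference itself.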

How the results depend on the processing

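The count of proteasome genes that rose with LPS in WT cells lay between 26 and 30 when each array was left out in turn. Their median change lay between 0.90 and 1.10. Over all 31366 genes these fits called 3706 to 4460 higher. The count that fell in WT cells ranged from 0 to 2, where 2719 to 3409 of all genes fell. It was 1 with the mean of exon regions (median change of all 47 genes 0.72), exon regions and junctions together, trend and robust settings, the 2 groups alone or the brighter regions, and 0 with a size threshold of 1 log2 unit. The count higher with LPS in ELL2 cko cells ranged from 8 to 13 by array left out, where 1229 to 2139 of all genes were higher. It was 7 with the size threshold.

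Between genotypes with LPS, leaving out arrays gave 0 to 1 of the 47 genes higher and 0 to 4 lower. Over all 31366 genes these fits called 63 to 830 higher and 484 to 1417 lower. The higher and lower counts were 0 and 1 with centred arrays, trend and robust settings, the brighter regions or the size threshold, 0 and 4 with the mean of exon regions, and 0 and 0 with the 2 groups alone or without the other-cell arrays. With the mean of exon regions 1399 of all 31366 genes were lower. The lower count was 4 of 45 genes with a filter on dim genes, where 1228 of all 17137 genes were lower. It was 0 with junctions added. For the difference of the LPS changes the lower count ranged from 0 to 4 by array left out, where 102 to 752 of all 31366 genes were lower. The lower count was 3 of 45 genes with the dim filter, where 495 of all 17137 genes were lower. It was 0 with junctions added, trend and robust settings, brighter regions or the size threshold.

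Some genes changed sign. With LPS in WT cells Psmb6 was 2.04 with junctions added and 1.20 by the brighter regions. Psmd14 was 1.39 by the mean, 0.79 with junctions added and 2.92 by the brighter regions, and Psme1 was 0.04 by the brighter regions. In ELL2 cko cells Psma4 was 1.06 and Psmb6 0.27 by the brighter regions. The cause was not tested.

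The calls of the pairs were lost under many of the alternatives. Without the other-cell arrays no pair could be called, because too few ELL2 cko arrays remain. By array left out, Psmb8 minus Psmb5 lay between -2.09 and -1.56 (WT, LPS) and between -0.86 and -0.50 (genotypes without LPS). Psmb9 minus Psmb6 lay between 1.47 and 1.67 (WT, LPS), 1.18 and 1.43 (genotypes without LPS) and 0.65 and 0.98 (genotypes with LPS). Psmb10 minus Psmb7 lay between -2.12 and -1.92 (WT, LPS), -1.38 and -0.99 (ELL2 cko, LPS) and 0.54 and 0.93 (genotypes with LPS). In that order of pairs and comparisons, but for Psmb8 minus Psmb5 between genotypes, the values were -1.77, 0.55, 0.31, 0.58, -1.30, -0.84 and 0.56 with the mean of exon regions. They were -1.22, 0.41, 0.48, 0.61, -2.27, -1.43 and 0.89 by the brighter regions, and -1.82, 1.60, 1.47, 0.38, -2.04, -1.55 and 0.44 without the other-cell arrays. Further quantile normalization gave -1.39 for Psmb8 minus Psmb5 with LPS in ELL2 cko cells, then called. Rows called within genes ranged from 24 to 61 (ELL2 cko, LPS) and from 0 to 15 (genotypes with LPS) by array left out.

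The replicate numbers gave no clear pairing of the samples: correlations of same-numbered deviations lay between -0.25 and 0.23. With so few arrays per group this check cannot exclude a pairing. With the replicate number as a block 28 genes rose and 2 fell with LPS in WT cells, and 12 rose in ELL2 cko cells. Between genotypes with LPS, 1 gene was higher and 2 were lower in ELL2 cko cells in that fit. Without the block these counts were, in the same order, 28, 2, 13, 1 and 2. The shares of all genes without the block were 13.9%, 10.6%, 6.36%, 1.36% and 3.3%. Psmb11 lay near the background rows, which limits what its values can show.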
